A study of Mus musculus with 99 samples.

Results

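The genes described here encode receptor-type protein tyrosine phosphatases. They are 10 genes chosen by name from the 55291 gene symbols of the count table: Ptprq, Ptprz1, Ptprg, Ptprd, Ptprf, Ptprs, Ptprk, Ptprm, Ptpra and Ptpre. Ptprq and Ptprz1 were chosen because their levels were higher in converted cells in these same data, so the difference between the groups is described and not tested.

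The counts came from 99 single hair cells of the cochlea of C57BL/6 mice, prepared as full-length cDNA libraries. Outer hair cells (OHCs) amplify sound by changing length, and inner hair cells (IHCs) signal sound to auditory nerve fibres. The first group held 32 wild-type OHCs at postnatal day 30 (P30) from mice with the genotype Slc26a5-CreER/+; Ai9/+. Slc26a5 encodes prestin, the motor protein of OHCs, and its CreER is an inducible recombinase that both groups carry; Ai9 is a tdTomato reporter. The other 67 cells, at postnatal day 42 (P42), came from mice with the genotype Slc26a5-CreER/+; Rosa26Tbx2/+, in which OHCs express the transcription factor Tbx2 ectopically and are labelled as converted IHCs (cIHCs). Cells of both groups were picked by hand for tdTomato fluorescence; the cIHC genotype names no Ai9 allele, and the source of tdTomato in those cells is not given in the sources used here. No cell is titled as an endogenous IHC, so no level here is set against a normal IHC. The groups differ in age as well as genotype, and the 2 cannot be told apart. Animals are not named in the labels, so each group counts as 1 sample, and every interval below covers counting error only.

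Receptor-type tyrosine phosphatases span the membrane and remove phosphate from tyrosines inside the cell, opposing tyrosine kinases. Their extracellular parts resemble adhesion molecules and bind ligands on other cells or in the matrix. Ptprq is the family member best known in the ear: its protein lies in the shaft connectors near the base of stereocilia, its catalytic domain prefers phosphoinositide lipids, and mutations in it cause hearing loss. Ptprz1 encodes a receptor carrying chondroitin sulphate chains, of which a secreted form, phosphacan, also exists; it is known mainly from glia and neural precursors.

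The libraries were of similar depth and the groups differed in other respects. Counts per cell ranged from 5656512 to 9287413 in OHCs and from 4677682 to 13792672 in cIHCs. The median number of genes with reads was 6068.5 per OHC and 8546 per cIHC, and the part of that gap in the shares of cells with reads given below was not tested beyond thinning to equal depth. Tbx2 had 3 counts in all OHCs together and 112.7 to 2643 CPM per cIHC, CPM being counts of a gene per fixed number of counts in a cell or group, with reads in all 67. The summed level of 6 OHC markers had a median of 50837 CPM in OHCs and 789.7 in cIHCs, and that of 7 IHC markers 2406 and 12612 CPM. Xist reads at 10 CPM or more were present in 4 OHCs and 55 cIHCs, so sex differed between the groups as well. OHC 22 and cIHC 49 stood apart by supporting cell markers, at 1662 and 682.5 CPM summed over 10 genes. Without those 2 cells the log2 ratio of Ptprq was 2.05 and the bound for Ptprz1 14.67.

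Ptprq had reads in nearly every hair cell of either group and was about 4 times as abundant in cIHCs. The gene lies on chromosome 10 at 107517049-107720051, minus strand, in mm10. Among OHCs its level was 0 CPM in the lowest cell, 178.0 CPM in the median cell and 594.7 CPM in the highest. Among cIHCs it was 130.9, 715.7 and 1432 CPM. The groups overlapped: 46 cIHCs lay above the highest OHC and 13 OHCs below the lowest cIHC, no OHC reached the cIHC median, and 2 cIHCs lay below the OHC median. In pairs of 1 cIHC and 1 OHC, the cIHC was higher in 94.9% of 2144. Pooled over cells, the level was 180.8 CPM (95% interval 179.1 to 182.5) in OHCs and 737.5 CPM (735.3 to 739.8) in cIHCs, a log2 ratio of 2.03 (2.01 to 2.04) or 4.08-fold. The median log2 ratio of all 10041 genes with at least 10 CPM was 0.25, so Ptprq lay 1.78 above it. Reads were present in 30 of 32 OHCs and 67 of 67 cIHCs. Relative to the mean, the spread over cells was wider in OHCs, with a coefficient of variation of 0.767 against 0.429. In CPM it was wider in cIHCs, with a standard deviation of 312.2 against 141.8.

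Ptprz1 had no read in any OHC and reads in every cIHC. It lies on chromosome 6 at 22875502-23052916, plus strand, with no exon shared with another annotated gene. All 32 OHCs were at 0 counts, a count that allows up to 9.38% of OHCs to hold reads. In cIHCs the lowest cell had 66.2 CPM, the median cell 303.8 and the highest 831.6. The groups did not overlap. Summed over the 67 cIHCs there were 179280 counts, or 329.6 CPM pooled (328.0 to 331.1). Set against a floor of 3 counts over all OHCs (0.0124 CPM), the log2 ratio was at least 14.70. Of all genes with at least 10 CPM, 0.0598% had reads in every cIHC and in no OHC, 0.0797% had every cIHC above every OHC and 0.0896% every cIHC below every OHC. Ptprz1 meets the first and the second description, but it was chosen from this contrast and nothing is read from those shares. No single cell carried the level, since the highest held 3.50% of the cIHC counts.

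Promoter sequence was available for 8 of the 10 genes, in 12 windows of 250 bases before the annotated start (RefSeq, GRCm38.p6, the same assembly as mm10). None was available for Ptprq or Ptprd, so nothing below covers their promoters. The T-box half-site, letters GGTGTGA or TCACACC on the other strand, was in 0 of the 12 windows and in 3.33% of 32851 promoter windows of that length. No match says only that these letters are not in these bases. The GC box, GGGCGG or CCGCCC, was in 32.7% of all windows and in 7 of the 12, of Ptprz1, Ptprf, Ptprs, Ptprk, Ptprm, Ptpra and Ptpre. The TATA letters TATAAA or TTTATA were in 12.4% of all windows and in 1 of the 12, of Ptpre. The windows of Ptprz1, Ptpra and Ptprk are printed because their genes had unlike patterns, with reads in cIHCs alone for Ptprz1, in both groups for Ptpra and at 1 or 2 counts for Ptprk. All read 5′ to 3′ on the plus strand, at chr6:22875252-22875501, chr2:130450028-130450277 and chr10:28074570-28074819, upstream of the gene and outside its exons and introns. Capitals mark the GC boxes.
Ptprz1: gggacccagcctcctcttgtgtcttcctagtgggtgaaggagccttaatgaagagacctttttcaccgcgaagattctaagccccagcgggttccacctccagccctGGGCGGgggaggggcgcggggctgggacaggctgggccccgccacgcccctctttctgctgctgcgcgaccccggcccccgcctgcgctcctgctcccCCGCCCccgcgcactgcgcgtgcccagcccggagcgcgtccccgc
Ptpra: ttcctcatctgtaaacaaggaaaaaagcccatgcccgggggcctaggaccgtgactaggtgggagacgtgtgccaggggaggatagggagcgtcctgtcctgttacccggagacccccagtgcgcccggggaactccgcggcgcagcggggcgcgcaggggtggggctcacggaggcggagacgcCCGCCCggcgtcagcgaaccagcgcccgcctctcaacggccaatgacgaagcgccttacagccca
Ptprk: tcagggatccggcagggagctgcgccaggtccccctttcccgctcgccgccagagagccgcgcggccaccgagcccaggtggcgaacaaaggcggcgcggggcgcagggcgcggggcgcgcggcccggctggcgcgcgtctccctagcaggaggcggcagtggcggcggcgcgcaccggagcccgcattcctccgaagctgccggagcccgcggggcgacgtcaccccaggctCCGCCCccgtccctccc

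Ptprz1 held 2 GC boxes and the others 1 each. GC content was 71.6%, 68.0% and 79.2%, against a median of 52.4% and a middle 90% of 34.8% to 73.6% over all windows.

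Markers of other cells were read beside Ptprz1. Of 10 supporting cell markers, 9 had reads in OHCs and 8 in cIHCs; their sum ranged from 0 to 1662 CPM with a median of 0.0603 in OHCs, and from 0 to 682.5 with a median of 0 in cIHCs. Epyc and Prox1 were at 0 in every cIHC, and Lfng was at 0 in every OHC with reads in cIHCs. Of 5 glial markers, 5 had reads in OHCs and 4 in cIHCs, with Pmp22 at 0 in cIHCs; the sums ranged to 174.1 and 118.9 CPM with medians of 0. Pooled, both lists were lower in cIHCs, at 22.3 against 61.2 CPM for supporting cells and 8.19 against 14.3 CPM for glia. OHC 22 carried most of the former: without it and cIHC 49, supporting cell markers were at 11.2 CPM in cIHCs against 18.7 in OHCs. In the 41 cIHCs without any supporting cell marker read, Ptprz1 ranged from 66.2 to 831.6 CPM with a median of 326.0. In the 39 cIHCs without any glial marker read, it ranged from 70.6 to 831.6 CPM with a median of 282.2. The median over all cIHCs was 303.8 CPM. Blood and macrophage markers were higher in cIHCs, with a pooled sum of 10.6 CPM in OHCs (range over cells 0 to 127.2) and 54.9 in cIHCs (0 to 336.9); 5 and 6 of 8 had reads, and C1qa and Cx3cr1 were at 0 in both groups. In the 26 cIHCs without a blood or macrophage read Ptprz1 had a median of 277.1 CPM.

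**Figure D1:**
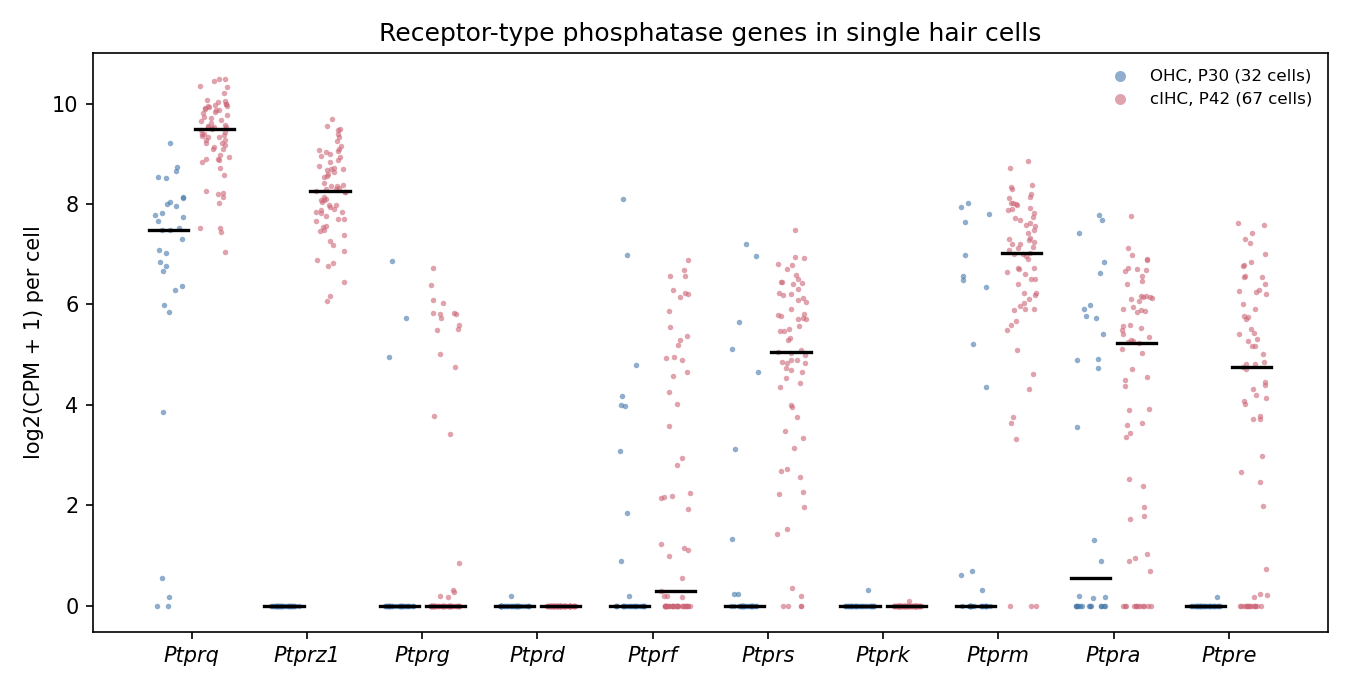
Level of each of the 10 genes in each cell as log2(CPM + 1), with OHCs at P30 (blue, 32 cells) left and cIHCs at P42 (red, 67 cells) right; black bars are medians. Ptprz1 and Ptpre are at or near 0 in OHCs, Ptprq is present in both groups, and Ptprd and Ptprk are at or near 0 in both.

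Ptprg is the closest relative of Ptprz1, with the same carbonic anhydrase-like domain that binds contactins. It was found in few cells of either group. Among OHCs, 3 of 32 had reads, the highest at 114.9 CPM and holding 48.3% of the group's counts. Among cIHCs, 21 of 67 had reads (31.3%, interval 20.6 to 43.8), the median cell was at 0 and the highest at 105.1 CPM. Pooled levels were 5.61 CPM (5.32 to 5.92) and 12.7 CPM (12.4 to 13.0), a log2 ratio of 1.17 (1.09 to 1.26). After all cells were thinned to the same number of reads the shares were 6.90% and 31.8%. No cIHC exceeded the highest OHC, and in 62.2% of pairs both cells were equal. The ratio was 0.98 with TMM scaling and 0.97 as a mean over cells, under the 2-fold line, and 1.93 with the top cell of either group left out and 2.13 after thinning.

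Ptprd, Ptprf and Ptprs form the LAR group, receptors on nerve endings that bind synaptic organisers and heparan sulphate proteoglycans and anchor liprins inside the cell. The 3 genes differed. Ptprd had 1 count in OHCs and none in cIHCs, too few for a ratio; 0 of 67 cIHCs allows a share of up to 4.48%.

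Ptprf reads were found in 10 OHCs and 37 cIHCs. The median cell was at 0 CPM in OHCs and at 0.225 in cIHCs, and the highest cells were at 274.2 and 116.5 CPM, so the highest cell was an OHC, which held 49.9% of that group's counts. Pooled levels were 12.8 CPM (12.4 to 13.3) and 18.8 CPM (18.4 to 19.2), a log2 ratio of 0.55 (0.49 to 0.61). With the top cell of either group left out the ratio was 1.36, and among cells with Xist reads, which include 4 OHCs, it was -0.68. The direction for Ptprf therefore rests on which cells are counted.

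Ptprs was in most cIHCs and a minority of OHCs. Reads were present in 9 OHCs, with a median of 0 and a highest level of 147.4 CPM, and in 63 cIHCs, with a lowest level of 0, a median of 32.3 and a highest of 177.2 CPM. A single cIHC lay above the highest OHC, and a cIHC was higher in 83.5% of pairs. Pooled, Ptprs was at 12.3 CPM (11.8 to 12.7) and 45.1 CPM (44.6 to 45.7), a log2 ratio of 1.88 (1.83 to 1.94), or at least 8.81 among cells with Xist reads, whose 4 OHCs held none. The highest OHC for Ptprs, with 37.4% of the OHC counts, was also the OHC with the highest sum of endothelial and fibroblast markers, at 217.1 CPM. Those 6 markers ranged from 0 to 593.9 CPM in cIHCs, with 4 having reads in OHCs and 6 in cIHCs, and Cdh5 and Kdr at 0 in OHCs; their part in the Ptprs level was not tested. Since LAR receptors are known from neurons, spiral ganglion neuron markers were read too: 4 of 6 had reads in OHCs and 5 in cIHCs, the sum ranged from 0 to 910.1 CPM (median 232.2) in OHCs and from 164.1 to 878.6 (median 537.2) in cIHCs, and Prph was at 0 in both. Hair cells also express some of these 6 genes, and their part in the Ptprs difference was not tested.

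Ptprk and Ptprm belong to the R2B group, which binds its own kind on neighbouring cells and acts at cell contacts. Ptprk had 2 counts in OHCs and 1 in cIHCs, and no ratio was formed. Per exon length Ptprm was the most abundant of the 8 genes beyond Ptprq and Ptprz1. Reads were present in 13 OHCs, with a median of 0 and a highest level of 260.0 CPM, and in 64 cIHCs, with a median of 129.1 and a highest level of 464.2 CPM. Of the cIHCs, 8 lay above the highest OHC, and 3 without a read overlapped the OHCs at 0. Pooled levels were 42.0 CPM (41.2 to 42.8) and 145.6 CPM (144.6 to 146.7), a log2 ratio of 1.79 (1.76 to 1.82). Among cells with Xist reads, the pooled level was 0.0693 CPM in the same 4 OHCs and 147.1 CPM in 55 cIHCs. In mm10 an annotated gene on the same strand, AC139750.1, covers 457 bases or 5.18% of the Ptprm exons, and reads there cannot be told apart.

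Ptpra and Ptpre form the R4 pair, with short extracellular parts; both are known to act on Src family kinases, and Ptpre also gives a cytosolic form that gene counts cannot separate. The pair parted. Ptpra had reads in 19 OHCs, with a median of 0.50 and a highest level of 217.6 CPM, and in 55 cIHCs, with a median of 36.5 and a highest level of 215.7 CPM. Its pooled levels were 36.05 CPM (35.3 to 36.8) and 43.4 CPM (42.8 to 43.9), a log2 ratio of 0.27 (0.23 to 0.30), near the 0.25 median of all genes. The sign turned to -0.21 among cells with Y-linked reads, and a cIHC was higher in 59.2% of pairs.

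Ptpre had 1 count in 1 OHC against 23306 counts in cIHCs. Reads were present in 53 of 67 cIHCs (79.1%, interval 67.4 to 88.1), 45 of them at 10 CPM or more; the lowest cell was at 0, the median at 25.9 and the highest at 195.1 CPM. All 53 lay above the OHC with the read. Pooled levels were 0.0041 CPM and 42.8 CPM (42.3 to 43.4), a log2 ratio of 13.34 (10.86 to 18.64), the width being that of a single OHC count. Of the 10041 genes at 10 CPM or more, 0.329% had at most 1 OHC count and reads in at least 75% of cIHCs; of the 10 genes, Ptprz1 and Ptpre did, and both the gene choice and this description used the same contrast. In mm10, 209 bases or 2.05% of the Ptpre exons and 327 bases or 3.01% of the Ptpra exons overlap a gene on the other strand, 5830432E09Rik and 4930473A02Rik, whose own levels were at most 0.320 CPM. Whether strand was used in counting is not given in the sources used here.

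**Figure D2:**
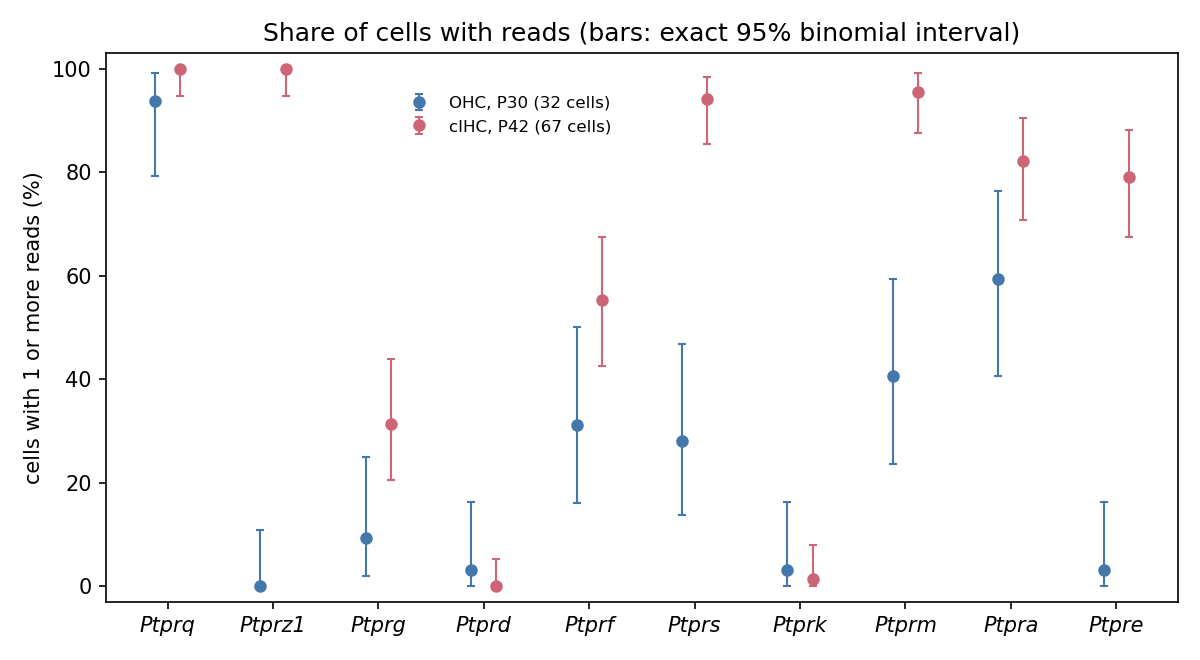
Share of cells with 1 or more reads of each gene (percent of cells) in OHCs at P30 (blue, 32 cells) and cIHCs at P42 (red, 67 cells); bars are exact 95% binomial intervals. The shares of Ptprz1, Ptprs, Ptprm and Ptpre are 0%, 28.1%, 40.6% and 3.13% in OHCs and 100%, 94.0%, 95.5% and 79.1% in cIHCs.

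As a family, 8 of the 10 genes had at least 10 CPM in 1 or both groups. Of those 8, 6 were at least 2-fold higher in cIHCs, namely Ptprq, Ptprz1, Ptprg, Ptprs, Ptprm and Ptpre, and 0 were at least 2-fold lower. Among all 10041 genes at that level 26.3% were at least 2-fold higher and 14.3% at least 2-fold lower. With TMM scaling 5 of the genes were at least 2-fold higher, against 22.3% of all genes. The median log2 ratio of the 8 was 1.84. Since Ptprq and Ptprz1 were chosen for being higher, and genes pass the level filter through the group where they are high, these counts are a description.

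Single cIHCs also held more of the 10 genes at once, as they did of all genes. Over all 10041 genes, 2837 to 5522 (median 3842.5) were at 10 CPM or more in an OHC and 4565 to 7578 (median 5641) in a cIHC. An OHC had 0 to 4 of the 10 at 10 CPM or more, with a median of 2, and a cIHC had 2 to 8, with a median of 6. At least 4 of the genes were present in 3 of 32 OHCs and 63 of 67 cIHCs. Leaving out Ptprq and Ptprz1, the count over the 6 lower genes with reads (Ptprg, Ptprf, Ptprs, Ptprm, Ptpra and Ptpre) was 0 to 3 with a median of 1 in OHCs and 0 to 6 with a median of 4 in cIHCs.

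The family has further receptor-type members in the table, and 11 were read alongside (Ptprb, Ptprc, Ptprh, Ptprj, Ptprn, Ptprn2, Ptpro, Ptprr, Ptprt, Ptpru and Ptprv). Of these only Ptpru, an R2B relative of Ptprm and Ptprk, had at least 10 CPM in a group. Ptpru was at 0 in the median OHC, with 9 OHCs having reads and the highest at 191.0 CPM, and at 3.48, 269.0 and 665.8 CPM in the lowest, median and highest cIHC. Its pooled level was 11.4 CPM (10.97 to 11.8) in OHCs and 294.6 CPM (293.1 to 296.0) in cIHCs, a log2 ratio of 4.69 (4.64 to 4.75). In OHCs 64.3% of its counts came from 1 cell; with the top cell of either group left out, the ratio was 6.10. Ptprc, the leukocyte gene CD45, had 1 count in OHCs and 2 in cIHCs, and Ptprb, an endothelial gene, 1 and 0.

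Divided by exon length, the levels of the genes can be ordered. In cIHCs the order of pooled CPM per kilobase of exon was Ptprq (98.4), Ptprz1 (23.1), Ptprm (16.5), Ptpre (4.20), Ptpra (4.00), Ptprs (3.01), Ptprf (2.05) and Ptprg (1.15). In OHCs it was Ptprq (24.1), Ptprm (4.76), Ptpra (3.32), Ptprf (1.40), Ptprs (0.817) and Ptprg (0.51), with Ptpre at 0.000405 and Ptprz1 at 0. Over cIHCs the interquartile ranges of neighbours did not overlap between Ptprq (69.7 to 126.3 CPM per kilobase) and Ptprz1 (14.9 to 31.4), nor between Ptprm (7.49 to 24.02) and Ptpre (0.0398 to 6.67). Ptprz1 and Ptprm overlapped, as did each neighbouring pair from Ptpre down. In OHCs every gene other than Ptprq had a median cell at or below 0.0461 CPM per kilobase, so the order there rests on few cells.

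**Figure D3:**
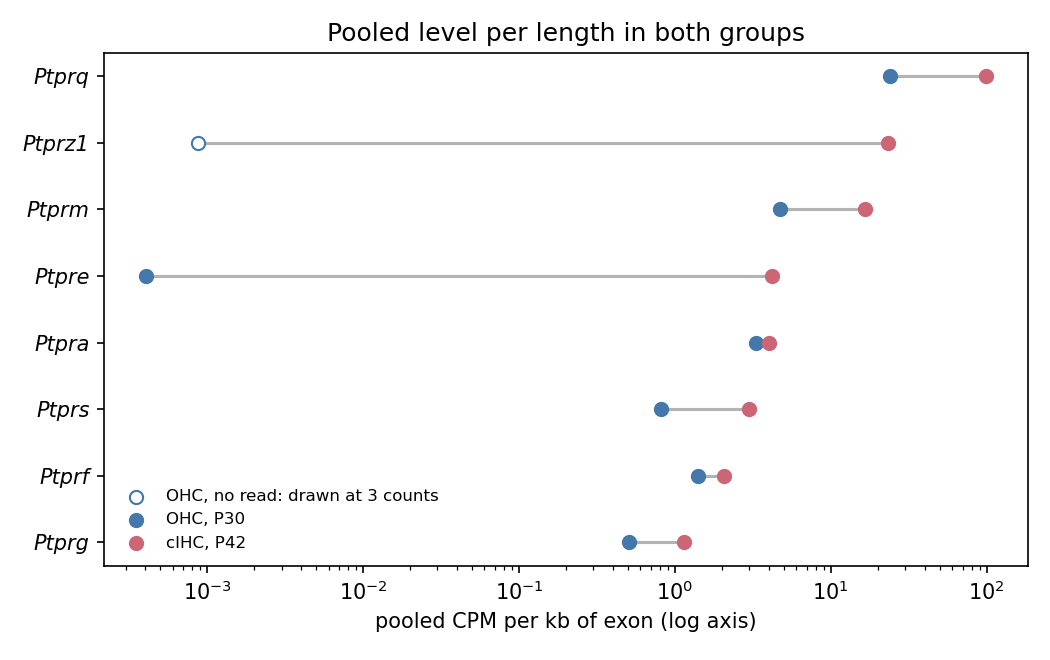
Pooled level per exon length in OHCs at P30 (blue) and cIHCs at P42 (red), in CPM per kilobase of exon on a log axis, for the 8 genes with a ratio; the open circle draws Ptprz1 at 3 counts because no OHC read was found. Ptprq is highest in both groups, from 24.1 to 98.4.

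Ptprq and Ptprz1 were both present in all 67 cIHCs, but their levels were only loosely related from cell to cell. Across the 67 cIHCs Spearman's rho was 0.16 and Pearson's r 0.22 on log2(CPM + 1). These cells share an unknown number of animals and differ in depth, and rho this low is no finding. Over all 28 pairs of the 8 genes rho ranged from -0.18 to 0.36 with a median of 0.11. Against Tbx2 itself, rho was 0.30 for Ptprq, -0.18 for Ptprz1 and 0.44 for Ptpra. Against Ocm, which encodes the OHC calcium buffer oncomodulin, Ptprq had a rho of -0.42 and Ptprz1 -0.02. Slc26a5, another OHC marker, went the other way with Ptprq, at 0.26. Against the sum of the 6 OHC markers, rho was -0.006 for Ptprq and -0.09 for Ptprz1. The number of genes with reads went with a rho of 0.13 for Ptprq, -0.31 for Ptprz1 and 0.32 for Ptpre. In the 32 OHCs, where Ptprq alone had reads in at least 75% of cells, its rho was -0.04 with Ocm and -0.23 with genes with reads.

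**Figure D4:**
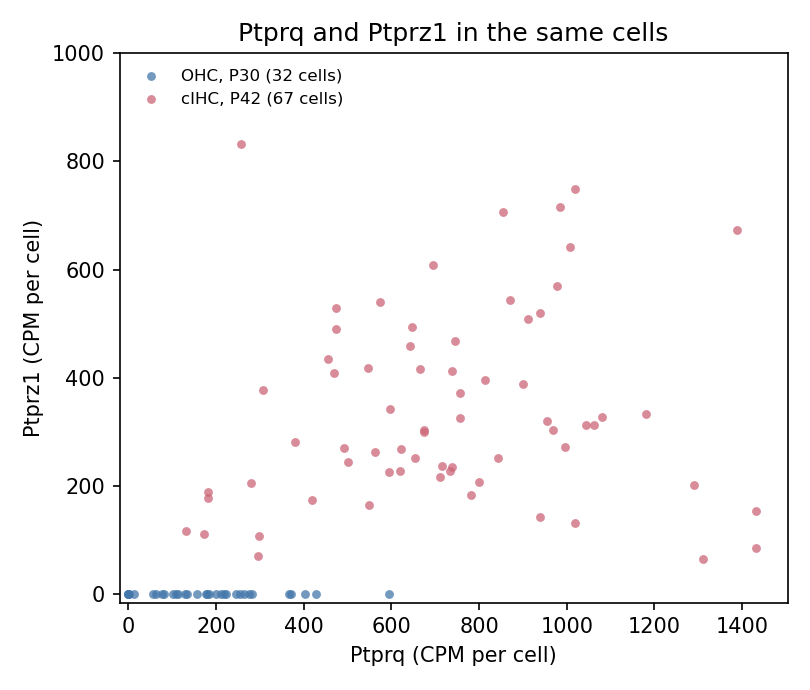
Ptprq (x axis) against Ptprz1 (y axis) in CPM in each of 32 OHCs at P30 (blue) and 67 cIHCs at P42 (red). The OHCs lie on the zero line of Ptprz1 at 0 to 594.7 CPM of Ptprq, whereas the cIHCs scatter from 130.9 to 1432 CPM of Ptprq and from 66.2 to 831.6 CPM of Ptprz1.

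Likeness was ranked over 3937 genes (50 CPM or more, found in 75% of cIHCs or more). Those most like Ptprq across cIHCs were Shtn1 (rho 0.60), Atp8a2 (0.58), Lce6a (0.54), Mindy4b-ps (0.52) and Fth1 (0.51). The middle 90% of all genes lay between -0.23 and 0.26. Shtn1 encodes shootin and was one of the IHC markers read here, Atp8a2 a phospholipid flippase and Fth1 the ferritin heavy chain. Other IHC markers did not follow Ptprq in this way, with a rho of -0.14 for Slc17a8 and 0.03 for Otof. With the sum of the 7 IHC markers, rho of Ptprq was -0.13. Those most like Ptprz1 were Tmc1 (0.49), Acbd7 (0.46), Hook1 (0.43), Hnrnpul2 (0.43) and Ate1 (0.42), against a middle range of -0.25 to 0.24. Tmc1 encodes a pore subunit of the mechanotransduction channel. By Pearson's r, 3 of the 5 genes for Ptprq and 1 of the 5 for Ptprz1 were again among the top 5, so the second set is the less firm.

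Partner genes of the receptors were read from lists of known interactions. The first list held genes known to act with Ptprq at the base and taper of stereocilia. All 6 had at least 10 CPM, and 1 was at least 2-fold higher, 1 at least 2-fold lower and 4 in between, near the 26.3% and 14.3% of all genes; the median log2 ratio was -0.41, against 0.25 for all genes. Grxcr1, a glutaredoxin-like protein of the bundle, had a median of 189.6 CPM (0 to 757.4) in OHCs and 101.4 CPM (0 to 290.0) in cIHCs. Its pooled levels were 223.4 and 108.7 CPM, a log2 ratio of -1.04 (-1.06 to -1.02), or -0.96 without the highest cell of each group, and the groups overlapped. The rest are named after their values were seen. Clic5 had a log2 ratio of -0.88 (-1.07 with TMM scaling), the minus-end-directed motor Myo6 -0.46, Grxcr2 -0.35 and radixin (Rdx) -0.17. Taperin (Tprn) had 1.84 at low levels of 2.81 and 10.1 CPM, or 2.35 without the highest cell of each group. Its reads were in 5 OHCs and 24 cIHCs, its median was 0 in both groups, and 1 OHC held 47.7% of its OHC counts.

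Of 14 ligands and partners of Ptprz1 and Ptprg, 6 had at least 10 CPM; 3 were at least 2-fold higher (26.3% of all genes were) and 1 lower (14.3%), and these too are named after their values were seen. Contactin-1 (Cntn1), a ligand held on the membrane, had no OHC read and reads in 32 cIHCs, at up to 236.3 CPM; its pooled cIHC level was 31.8 CPM and its log2 ratio at least 11.33. Tenascin-C (Tnc), a matrix ligand, had reads in 1 OHC and 43 cIHCs, with pooled levels of 1.59 and 31.9 CPM and a log2 ratio of 4.32, or at least 11.11 without the highest cell of each group. Ncam1 had a log2 ratio of 1.09 (0.90 with TMM scaling, and 2.36 with the top cell of either group left out, since 1 OHC held 63.4% of the OHC counts) and Nrcam -1.38. Pleiotrophin (Ptn), a secreted ligand of Ptprz1, was abundant in both groups, at medians of 323.2 CPM (0 to 1143) in OHCs and 389.1 CPM (33.2 to 1054) in cIHCs. Its log2 ratio was 0.21 (0.02 with TMM scaling), and its relative midkine (Mdk) was at 2.44 and 2.29 CPM, of which 1 OHC held 98.6% and 1 cIHC 82.2%; the rest of the cells gave 0.0339 and 0.415 CPM.

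For the LAR group, 1 of 16 ligands had at least 10 CPM. This was Ntrk3, a neurotrophin receptor that also binds Ptprs. It had 8 counts in OHCs and reads in 39 cIHCs, at 0 in the lowest, 0.251 in the median and 1638 CPM in the highest cell. Pooled levels were 0.0331 and 271.9 CPM, a log2 ratio of 13.01 (12.03 to 14.22), or 14.24 with the top cell of either group left out, with 28 cIHCs holding no read. Of 5 cytoplasmic partners, 4 had at least 10 CPM and 2 were at least 2-fold higher, against 26.3% of all genes. These were the liprin Ppfia4 and the exchange factor Trio. Ppfia4 was at medians of 0.542 CPM (0 to 282.2) in OHCs and 77.5 CPM (0 to 469.0) in cIHCs. Its log2 ratio was 1.04 (1.01 to 1.08, or 0.85 with TMM scaling). Trio had a log2 ratio of 2.07 at low pooled levels of 2.71 and 11.4 CPM. Its median was 0 in both groups, and 1 OHC held 43.1% of the OHC counts.

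Of 9 substrates, 7 had at least 10 CPM; 2 were at least 2-fold higher, close to the 26.3% of all genes, and 0 lower, with a median of -0.08. Plakoglobin (Jup), a junction protein, had a median of 275.5 CPM (36.2 to 1333) in OHCs and 691.6 CPM (15.7 to 2210) in cIHCs. Its log2 ratio was 1.31 (1.30 to 1.33). The ranges overlapped, and a cIHC was higher in 86.5% of pairs. Fyn, a Src family kinase, was at 1.24 with pooled levels of 6.38 and 15.1 CPM. Beta-catenin (Ctnnb1) was at -0.13.

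**Figure D5:**
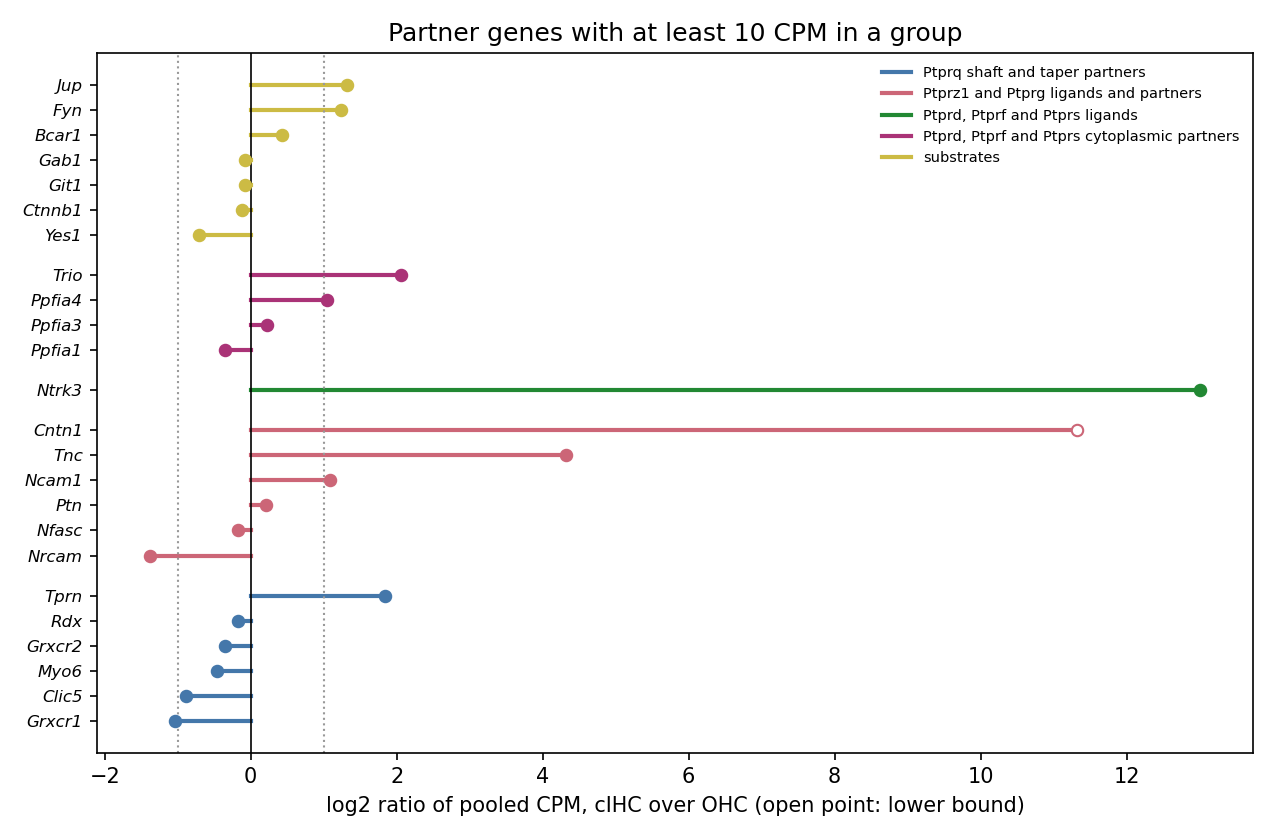
Log2 ratio of pooled CPM, cIHC over OHC, for partner genes with at least 10 CPM in a group, coloured by list; dotted lines mark 2-fold, and the open point for Cntn1 is a lower bound. Ntrk3 at 13.01 and Cntn1 at 11.33 or more lie farthest right, and most stereocilium partners of Ptprq lie left of 0.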

How the data were processed

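The data were read counts per gene from 32 OHCs and 67 cIHCs. Counts were deposited by the authors as 1 table of 55291 symbols and 99 cells, all whole numbers, with 0 columns of no sample and 0 identical columns. HISAT2 2.2.1, StringTie 2.2.1, featureCounts 2.0.1 and mm10 are named in the submitters' processing notes; annotation, strand setting and filters are not given in the sources used here. The protocol text, common to all cells, speaks of picked IHCs and iOHCs; the titles were followed.

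Cells were assigned by title. All were kept and no doublet caller was run, since cells were picked singly. Counts were summed per group and divided by the group total (pooled CPM). Log2 ratios carry exact conditional binomial 95% intervals, pooled CPM exact Poisson and shares exact Clopper-Pearson intervals; reads are not independent molecules, so these cover counting error only. A sum of 0 was set to 3 counts, and no ratio was formed where both sums were at or under 3. For 0 of n cells the limit is 3 of n. A gene was called at a log2 ratio of 1 or beyond among genes at 10 CPM or more in either group. No p-value was computed, because each group is 1 sample. Shares were recomputed after thinning to 5770000 reads (29 OHCs, 66 cIHCs).

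Beyond the 10 genes, other receptor-type phosphatases were named at 10 CPM or more and partners at 50 CPM or more with a 2-fold ratio. The 5 genes most correlated with Ptprq or Ptprz1 were also named. Further receptor-type phosphatases under 10 CPM and all other partners were named after their values were seen. Of the listed genes, 1 was left out of all steps and is not reported here. The genes and lists were chosen with earlier results of these data known. Coordinates, exon lengths and overlaps come from GENCODE M21 (GRCm38), possibly not the annotation used for counting. Alternatives were other summaries per cell, leaving out the highest cell, TMM (edgeR 4.0.16 in R 4.3.3) and median-of-ratios scaling, other totals, other filters, cells of 1 sex and thinning. Leaving out the 2 cells richest in supporting cell markers was chosen after seeing the data. Other steps ran in Python 3.11.15 (pandas 2.3.3, numpy 2.4.6, matplotlib 3.10.9, scipy 1.17.1), and the ratio step was tested on simulated data.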

Additional observations from a re-analysis of the deposited data

How the results depend on the processing

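No paired analysis was possible because title numbers merely number the cells within each group and no result here is a test. The log2 ratio of Ptprq, 2.03 from all cells, was 1.98 as a mean over cells, 2.01 as a median, 2.13 without the highest cell of each group, 1.84 with TMM and 1.83 with median-of-ratios scaling, 1.98 without mitochondrial genes, 1.95 without the most abundant genes, 2.01 without 4 OHCs with few genes, 1.99 thinned and 2.05 without the cells richest in supporting cell markers. The bound for Ptprz1, 14.70, was in the same order 14.63, 14.51, 14.50, 14.65, 14.62, 14.53, 14.18 and 14.67, with no value as a mean or median because OHCs are at 0. Cells with Xist reads gave 1.69 for Ptprq and 11.62 for Ptprz1, and cells with Y-linked reads 1.74 and 14.37. The median of the other genes with a ratio, 1.48, was 1.37 as a mean, 6.19 as a median (Ptpra alone), 1.96 without the highest cells, 1.29 with TMM, 1.28 with median-of-ratios, 4.76 in cells with Xist reads, 1.09 in those with Y-linked reads and 1.88 thinned. With medians over cells, 2 genes (Ptprq and Ptpra) were at least 2-fold higher, against 6 from all counts. Medians give no value where a group is at 0. The count was 5 with TMM and with median-of-ratios scaling, and 5 in cells of either sex. It was 4 as a mean over cells, where Ptprz1 has no value. Without the highest cells, without OHCs with few genes or thinned, it was 7. Of the 10 genes, 2 had reads in over 50% of OHCs and 1 did at 10 CPM. With no filter 42.6% of genes were at least 2-fold higher and 18.8% at least 2-fold lower. At 50 CPM or more these shares were 20.5% and 12.2%. Ptprf reversed to -0.68 in cells with Xist reads and Ptpra to -0.21 in those with Y-linked reads. TMM and median-of-ratios scaling moved all ratios by -0.19 and -0.20. Beyond the bound of 11.62 for Ptprz1, the cause of these changes was not tested. With 1 sample a group, the spread between animals is unknown.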

Other observations

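Sex could be read beside the levels. In the 55 cIHCs with Xist reads the pooled level of Ptprq was 764.3 CPM and in the 12 with Y-linked reads 583.9 CPM; Ptprz1 was at 326.4 and 347.7 CPM. In OHCs, Ptprq was at 237.4 CPM in the 4 cells with Xist reads and 174.5 CPM in the 24 with Y-linked reads, and Ptprz1 at 0 in both.

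Of the receptor-type phosphatases with less than 10 CPM in both groups, Ptprn2, a dense-core vesicle protein without phosphatase activity on tyrosine, was at 0.0207 CPM in OHCs and 5.52 CPM in cIHCs, with reads in 44 cIHCs. Ptprj was at 5.86 and 1.40 CPM, and 1 cell held 72.8% of its counts in OHCs and 1 cell 88.3% in cIHCs. Ptprn was also lower in cIHCs, at 4.04 CPM in OHCs and 0.257 CPM in cIHCs, with 96.1% of the OHC counts in 1 cell. Without the highest cell of each group its log2 ratio was -3.26. Ptpro had 300 counts, all in 1 OHC, and 0 in cIHCs. Ptprh, Ptprr and Ptprt were higher in cIHCs, at pooled levels of at most 0.735 CPM.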
